A study of Mus musculus with 14 samples.

Results

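The clustered histone genes are the protein-coding genes of the Hist1, Hist2, Hist3 and Hist4 clusters, chosen by symbol and by a mean above 0.2 FPKM over the 8 samples. FPKM is fragments per kilobase of transcript, scaled to the size of the library, so it sets genes side by side per length. Of 68 such genes in the deposited table, 44 met the rule, among 15430 genes of any kind with a mean above 0.2 FPKM and 41204 genes in all. Of the other 24, 6 were listed at 0 in all 8 samples, and 2 entries of these names that are annotated as pseudogenes were left out.

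Poly(A) RNA of mouse embryonic stem cells (ESCs, from C57BL/6(F) x 129/sv(M)) was sequenced in 4 groups with 2 samples each. Wild-type and Trincr1-/- ESCs were grown in 2i + LIF, which is N2B27 medium with the MEK inhibitor PD0325901 at 1.0 µM, the GSK3 inhibitor CHIR99021 at 3.0 µM and leukemia inhibitory factor at 1000 units/ml, or in PD + LIF, for which cells spent 24 h in 2i + LIF and then 4 days without CHIR99021. All 4 groups therefore held the MEK inhibitor and LIF. Trincr1 (Gm2694 in the table) is a long noncoding RNA that lost some of its exons to a cut by a pair of guide RNAs, and how many clones the knockout samples came from is not stated. The samples are called biological replicates, nothing more is said of their origin, and p-values measure the spread between these samples only.

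A nucleosome is a core of histones H2A, H2B, H3 and H4 wrapped in DNA, and H1, the linker histone, sits on the DNA between cores. The clustered genes supply these proteins while DNA is copied in S phase, and their mRNAs end after a short stem-loop bound by SLBP, cut with the help of the U7 snRNP, in place of a poly(A) tail. Libraries made with poly(T) beads, as here with 2 rounds of selection, capture RNA by its tail, so the values below are what such libraries hold of these genes and not the amount of histone mRNA in the cell.

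The stem-loop is shown first because it is the feature that the members share and the rule did not use. It was searched within 300 bases after the stop codon as a stem of 6 base pairs and a loop of 4 bases. The letters were limited to GGYYYT, HHTH and ARRRCC in a row, where Y is C or T, R is A or G and H is any base but G. This pattern is shaped on the histone stem-loop, so the shares hold for it and not for any stem-loop that opens with GG. The stem-loop was found in 42 of the 44 members (95.5%) and in 63 of 22379 protein-coding genes (0.282%) of the NCBIM37 annotation. Of those 63 genes, 60 are clustered histone genes and the other 3 are Bap1, 1700014N06Rik and H2afx, the last of which encodes the DNA damage variant H2A.X. It began 23 to 55 bases after the stop codon, with a median of 31. Hist2h2bb and Hist1h2al had no match in this window. One member of each type and 3 members that differed between groups are printed below, 5′ to 3′ on the gene's strand, with the stem and loop in capitals.
Hist1h1a: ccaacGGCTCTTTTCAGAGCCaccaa
Hist1h2ae: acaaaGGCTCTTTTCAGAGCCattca
Hist1h2bc: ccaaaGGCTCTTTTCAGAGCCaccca
Hist3h2ba: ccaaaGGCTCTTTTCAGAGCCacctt
Hist1h3c: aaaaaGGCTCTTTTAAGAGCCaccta
Hist1h3e: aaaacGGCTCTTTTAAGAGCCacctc
Hist1h4i: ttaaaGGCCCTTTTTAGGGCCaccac
Hist1h4k: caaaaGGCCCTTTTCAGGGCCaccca
In NCBIM37 these lie at chr13:23856256-23856281 (plus strand) for Hist1h1a, chr13:23662532-23662557 (minus) for Hist1h2ae, chr13:23776511-23776536 (plus) for Hist1h2bc and chr11:58762846-58762871 (plus) for Hist3h2ba. The stem-loop of Hist1h3c is at chr13:23836911-23836936 (minus), that of Hist1h3e at chr13:23653767-23653792 (minus), that of Hist1h4i at chr13:22132830-22132855 (minus) and that of Hist1h4k at chr13:21842014-21842039 (minus). All 8 lie after the stop codon in the genome sequence, and were not checked against annotated transcript ends. The annotated transcript of Hist1h4k has 312 bases, of which 309 are coding. Its stem-loop, 28 bases after the stop codon, lies past the annotated end.

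The letters of the stem-loop differed by histone type, between H4 and the others in the stem. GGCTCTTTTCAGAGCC was held by 27 members, of which 5 encode H1, 11 H2A, 8 H2B and 3 H3, and by no H4 member. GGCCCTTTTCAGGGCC was held by 6 members, all of H4, and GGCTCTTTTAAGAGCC by 5, of which 3 encode H2B and 2 H3. The other 4 members with a stem-loop had a form of their own. The poly(A) signal AATAAA occurred in the same 300 bases in 4 members (Hist1h2ae, Hist1h3g, Hist1h4a and Hist3h2ba, 9.09%) against 28.4% of all protein-coding genes, and AATAAA or ATTAAA in 8 members (18.2%) against 38.6%. Signals further than 300 bases from the stop codon were not searched, so these shares do not tell which genes have one.

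Promoter letters also followed the type. RefSeq promoters of GRCm38.p6, from 250 bases before to 50 after the start of the gene, were matched for 40 of the 44 members and searched on both strands. The octamer ATTTGCAT, a site of POU factors such as OCT1, was in 10 of the 40 (25.0%) against 1.75% of 27025 promoters, in 5 of 10 H2A and 5 of 11 H2B promoters and in none of H1, H3 or H4. TATAAA was in 57.5% of members' promoters against 14.2% of all, and CCAAT in 85.0% against 37.9%, with 3 of 9 for H4 and every promoter of the other types. H2A and H2B genes often lie head to head, so that neighbouring windows can hold the same letters.

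The members lay in few runs of neighbouring genes, given here in GRCm38, the build that the table's coordinates follow. Hist1, on chromosome 13, held 41 members of 55 genes. A run at chr13:21715762-21837530 held 12 members of 18 genes, one at chr13:22035163-22043676 held 5 of 5, and one at chr13:23531049-23764358 held 23 of 29, while Hist1h2al stood alone at chr13:51202687-51203065. Hist2, on chromosome 3, held 1 member (Hist2h2bb) of 10 genes, Hist3, on chromosome 11, held 2 of 2 (Hist3h2a and Hist3h2ba), and Hist4, on chromosome 6, held none of 1. By type the members were 5 of 6 genes for H1, 12 of 19 for H2A, 12 of 18 for H2B, 6 of 12 for H3 and 9 of 13 for H4.

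Gm2694, the deleted gene, stood at 5.71 and 9.45 FPKM in the wild-type samples and 0.0754 and 0 FPKM in the knockout samples in 2i + LIF, and at 6.18 and 6.56 FPKM against 1.38 and 0.746 FPKM in PD + LIF. Depth, read from the smallest spacing of the FPKM values, was 10.3 to 14.1 M fragments per sample. The 10 pluripotency genes summed to 1963 to 3972 FPKM, with 8 lower and 1 higher in PD + LIF in wild type, 8 lower in Trincr1-/- ESCs, and 6 below the wild-type level in Trincr1-/- ESCs grown in PD + LIF. Markers of fibroblast feeder cells, 4 of 10 of which passed the filter, summed to 0.851 to 1.50 FPKM in 2i + LIF and 4.47 to 7.17 FPKM in PD + LIF, with Fap listed at 0. Markers of primitive endoderm, 4 of 7 tested, summed to 1.04 to 1.89 and 4.67 to 7.75 FPKM. The part of these cells in the values below was not tested, and fewer cells of a type and less RNA per cell cannot be told apart in such samples.

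Clustered histone genes were low in all 8 libraries. The 44 members had a median of 0.549 FPKM and 13 of them (29.6%) were above 1 FPKM, against a median of 6.69 FPKM and 78.2% above 1 FPKM for all genes tested. Only 13.9% of all genes tested had a mean below the members' median. The member with the highest mean, Hist1h4i at 4.69 FPKM, gave 12.2% of the members' summed mean. By type the median was 1.08 FPKM for H4 (range 0.397 to 4.69), 0.592 for H3 (0.349 to 2.59), 0.503 for H2B (0.235 to 2.60), 0.487 for H2A (0.240 to 1.52) and 0.388 for H1 (0.349 to 1.06). The ranges of the types overlapped. Just inside the filter stood Hist1h2bh at 0.235, Hist1h2ai at 0.240 and Hist1h2ac at 0.250 FPKM, and just outside it Hist1h3b and Hist2h3b at 0.187 and Hist2h2be at 0.179 FPKM.

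Few fragments stood behind these values. For 41 members the FPKM values could be turned back into whole fragments to within 0.1 of a fragment, all but Hist1h2bc, Hist2h2bb and Hist3h2a, and the 41 together held 1026 fragments over the 8 samples. A median member had 14 fragments in all 8 libraries, 13 members had under 10, and 15 members had 1 fragment or more in every library. Of the 328 values, 68 (20.7%) were 0 and 182 were 1 to 3 fragments, while 20 reached 10. A single fragment on a gene of 400 bases is worth 0.399 to 0.539 FPKM in these libraries, which is about the level of a median member. A fragment is not shown to be a separate molecule, and intervals given below cover counting error only.

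Paralogs add a further limit. A share of each member's transcript, in windows of 50 bases, was identical to a window of another gene, with a median of 46.4% over the members and over 50% in 18 of them, while 4 members shared none. By type the median was 4.32% for H1, 60.4% for H2A, 54.5% for H2B, 51.8% for H3 and 43.0% for H4. How fragments that map to several genes were counted, and whether strand was used, is not stated, so a member's value can hold fragments of its copies. Hist3h2ba and Hist2h2bb shared no window, Hist1h2bm shared 36.2%, Hist1h4i 40.2%, Hist1h2bc 47.3% and Hist1h4k 71.5%, and Hist3h2a shared 34.0% with Trim17, a gene that is no histone.

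Summed over the 44 members, the level was 33.1 and 46.3 FPKM in wild-type ESCs and 51.9 and 45.0 FPKM in Trincr1-/- ESCs in 2i + LIF, and 30.7 and 32.3 FPKM in wild-type ESCs and 31.6 and 36.4 FPKM in Trincr1-/- ESCs in PD + LIF. The group means were 39.7 ± 9.34, 48.4 ± 4.83, 31.5 ± 1.13 and 34.0 ± 3.44 FPKM (SD, n = 2). In FPKM the media did not overlap in either genotype, with 2i + LIF above PD + LIF, whereas the genotypes overlapped in both media. In wild type the gap was narrow, 33.1 against 32.3 FPKM. The members took 0.00615% to 0.0102% of all FPKM of a sample. In fragments the 41 members had 111, 141, 162 and 132 in 2i + LIF and 122, 108, 119 and 131 in PD + LIF, which is 9.15 to 13.2 and 8.67 to 10.1 per M. On this scale the media overlapped in wild type and not in Trincr1-/- ESCs. The genotypes did not overlap in either medium, with Trincr1-/- ESCs higher. In 2i + LIF the wild-type samples had 9.15 and 11.6 per M and the Trincr1-/- samples 13.2 and 12.9. In PD + LIF these were 8.67 and 9.18 against 10.1 and 9.75. In 2i + LIF the 95% exact Poisson intervals overlapped, up to 13.7 for the higher wild-type sample and from 10.8 for the lower Trincr1-/- sample. So they did in PD + LIF, up to 11.1 and from 8.15.

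**Figure D1:**
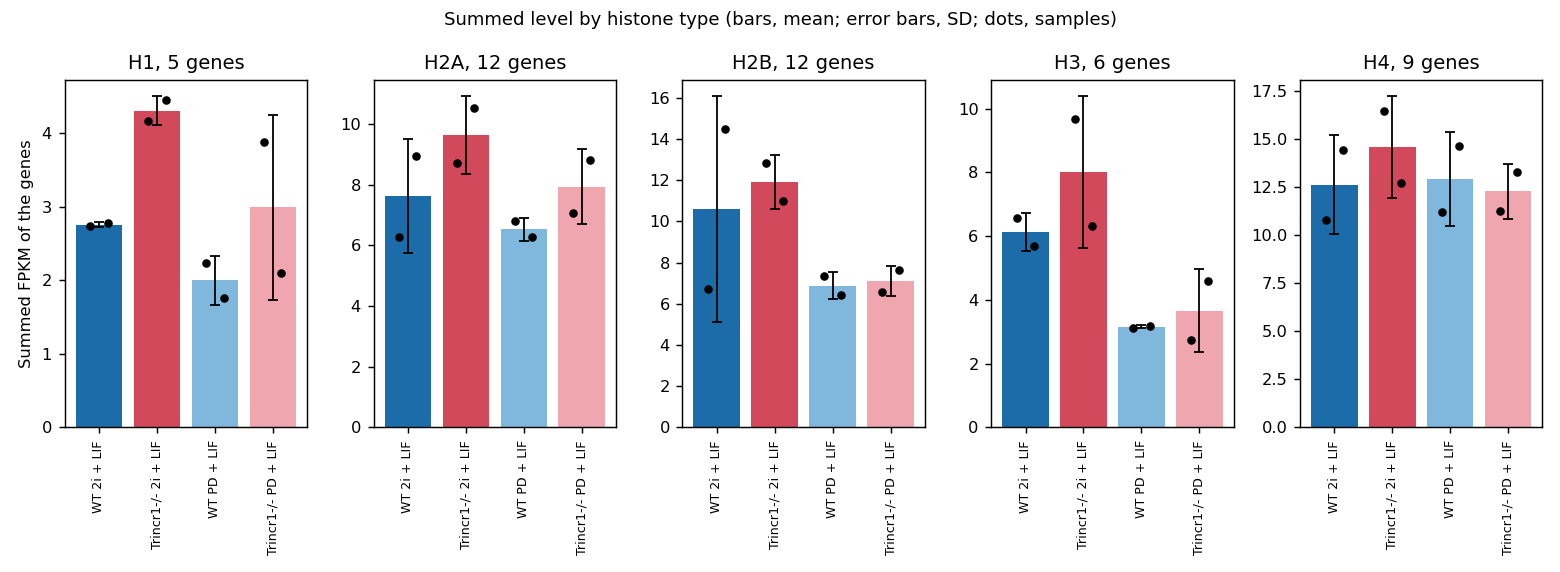
Summed FPKM of the members of each histone type in each sample, with the group mean and SD (n = 2). H3 lies at 5.70 to 9.69 FPKM in the 4 samples in 2i + LIF and 2.75 to 4.58 FPKM in the 4 in PD + LIF, while H4 overlaps in every comparison.

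The H3 members, which encode a core histone that carries many of the known chromatin marks, were the type whose 4 samples in 2i + LIF all lay above the 4 in PD + LIF. Their sum was 6.56 and 5.70 FPKM in wild-type ESCs and 9.69 and 6.32 FPKM in Trincr1-/- ESCs in 2i + LIF, against 3.13 and 3.19 FPKM and 2.75 and 4.58 FPKM in PD + LIF. In fragments per M the lowest sample in 2i + LIF had 1.73 (95% exact Poisson interval 1.07 to 2.64) and the highest in PD + LIF had 1.26 (0.737 to 2.02), so that the intervals of these samples overlapped.

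Hist1h3c led the H3 genes. It was at 3.35 and 1.25 FPKM in wild-type ESCs and 6.38 and 3.60 FPKM in Trincr1-/- ESCs in 2i + LIF, and at 1.32 and 2.20 FPKM and 0.944 and 1.68 FPKM in PD + LIF. The wild-type groups overlapped and the Trincr1-/- groups did not. Hist1h3h was at 1.71, 0.885, 0.427 and 1.01 FPKM in the same order in 2i + LIF and 0.747, 0, 0 and 0.395 FPKM in PD + LIF. Hist1h3e was at 1.07 and 0.941 FPKM in wild-type cells and 0.928 and 0.631 FPKM in Trincr1-/- ESCs in 2i + LIF, and at 0.115 and 0.138 FPKM and 0.688 and 0.485 FPKM in PD + LIF. The low pair of Hist1h3e was the wild type in PD + LIF. Hist1h3a, Hist1h3i and Hist1h3g, with means of 0.560, 0.469 and 0.349 FPKM, reached at most 1.56 FPKM in a sample.

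H4, a core histone encoded by several genes of like sequence, was the type with the highest median, and its summed FPKM did not separate any groups. The sums were 10.8 and 14.5 FPKM in wild-type ESCs and 16.5 and 12.7 FPKM in Trincr1-/- ESCs in 2i + LIF, and 11.2 and 14.7 FPKM and 11.3 and 13.3 FPKM in PD + LIF. In fragments per M the wild-type samples had 3.13 and 4.11 in 2i + LIF and the Trincr1-/- samples 4.33 and 4.29, without overlap. In PD + LIF the Trincr1-/- samples had 3.74 and 3.65, below those in 2i + LIF. The remaining comparisons overlapped. In 2i + LIF the 95% exact Poisson intervals overlapped, 3.05 to 5.42 for the higher wild-type sample and 3.115 to 5.76 for the lower Trincr1-/- sample. Hist1h4i was at 3.89 and 4.91 FPKM in wild-type ESCs and 4.35 and 5.93 FPKM in Trincr1-/- ESCs in 2i + LIF, and at 5.05 and 4.68 FPKM and 5.01 and 3.69 FPKM in PD + LIF. With 231 fragments over the 8 libraries it was the best measured of the 41 members, and its log2 differences in the 4 comparisons were 0.18, -0.14, 0.13 and -0.20 with a standard error of 0.18 each, none past the threshold.

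The H4 genes next in level had replicates that lay far apart. Hist1h4b was at 0.923, 3.33, 4.11 and 1.64 FPKM in 2i + LIF and 1.21, 1.43, 0.478 and 1.70 FPKM in PD + LIF, wild-type samples before Trincr1-/- samples. Hist1h4d was at 1.89, 2.45, 2.36 and 1.11 FPKM in 2i + LIF and 0.413, 2.44, 1.47 and 2.62 FPKM in PD + LIF. The groups of both genes overlapped in all 4 comparisons.

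H2B, which pairs with H2A in the nucleosome core, held the member with the second highest mean. The H2B sums were 6.73 and 14.5 FPKM in wild-type ESCs and 12.8 and 11.0 FPKM in Trincr1-/- ESCs in 2i + LIF, and 7.34 and 6.42 FPKM and 6.60 and 7.64 FPKM in PD + LIF. The wild-type replicates in 2i + LIF were the most unlike pair, and the media did not overlap in Trincr1-/- ESCs. Hist1h2bc was at 2.55 and 3.06 FPKM in wild-type ESCs and 5.38 and 3.76 FPKM in Trincr1-/- ESCs in 2i + LIF, and at 1.38 and 1.81 FPKM and 1.15 and 1.74 FPKM in PD + LIF. Its 4 samples in 2i + LIF all lay above the 4 in PD + LIF. Hist1h2bj was at 0.337, 2.07, 2.02 and 1.99 FPKM in 2i + LIF and 0.587, 0.697, 1.74 and 0.619 FPKM in PD + LIF. Hist1h2bk was at 0.640, 1.97, 1.59 and 1.13 FPKM and 1.67, 0.662, 0.992 and 0.587 FPKM. Of both genes the first wild-type replicate in 2i + LIF was below the second.

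H2A, the partner of H2B, had sums of 6.28 and 8.95 FPKM in wild-type ESCs and 8.72 and 10.5 FPKM in Trincr1-/- ESCs in 2i + LIF, and 6.80 and 6.26 FPKM and 7.07 and 8.81 FPKM in PD + LIF. The media overlapped in both genotypes, and in PD + LIF the Trincr1-/- samples lay above the wild-type samples in FPKM. In fragments per M of the 11 H2A members with an estimate, the genotypes overlapped in PD + LIF. The wild-type samples had 1.42 and 1.27 and the Trincr1-/- samples 1.36 and 1.93. Hist1h2ae was at 0.682 and 0.700 FPKM in wild-type ESCs and 2.04 and 2.82 FPKM in Trincr1-/- ESCs in 2i + LIF, and at 1.19 and 2.12 FPKM and 0.705 and 1.88 FPKM in PD + LIF. In 2i + LIF its genotypes did not overlap, with a log2 difference of 1.01 that did not pass (limma adjusted p = 0.161). Hist1h2af was at 0.912, 2.84, 1.82 and 2.69 FPKM in 2i + LIF and 0.798, 0, 1.42 and 0.421 FPKM in PD + LIF. Hist1h2ag was at 0.928, 1.90, 1.23 and 0.731 FPKM and 1.34, 0.959, 1.60 and 1.13 FPKM, and its groups overlapped in all 4 comparisons.

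H1, the linker histone, had the lowest sums, 2.73 and 2.78 FPKM in wild-type ESCs and 4.17 and 4.44 FPKM in Trincr1-/- ESCs in 2i + LIF, and 2.24 and 1.76 FPKM and 3.88 and 2.10 FPKM in PD + LIF. In FPKM the genotypes did not overlap in 2i + LIF, nor did the media in either genotype. In fragments per M the Trincr1-/- samples had 2.62 and 2.83 in 2i + LIF and 2.89 and 1.71 in PD + LIF, so their media overlapped. In 2i + LIF the higher wild-type sample had 2.05 (95% exact Poisson interval 1.33 to 3.03). The lower Trincr1-/- sample had 2.62 (1.79 to 3.69), so these intervals overlapped. Most of the genotype difference in FPKM in 2i + LIF was in Hist1h1a. In 2i + LIF this gene was at 0.584 and 1.38 FPKM in wild-type cells and 2.13 and 2.76 FPKM in Trincr1-/- ESCs. In PD + LIF it was at 0.674, 0, 0.803 and 0.177 FPKM. Its genotype difference in 2i + LIF, 0.82 on the log2 scale, did not pass (limma adjusted p = 0.306). Hist1h1c was at 0.738, 0.922, 0.792 and 0.943 FPKM in 2i + LIF and 0.477, 0.950, 1.14 and 0.778 FPKM in PD + LIF, with overlap everywhere. Hist1h1d was at 0.784, 0.317, 0.312 and 0 FPKM and 0.272, 0.324, 0.809 and 0.285 FPKM.

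**Figure D2:**
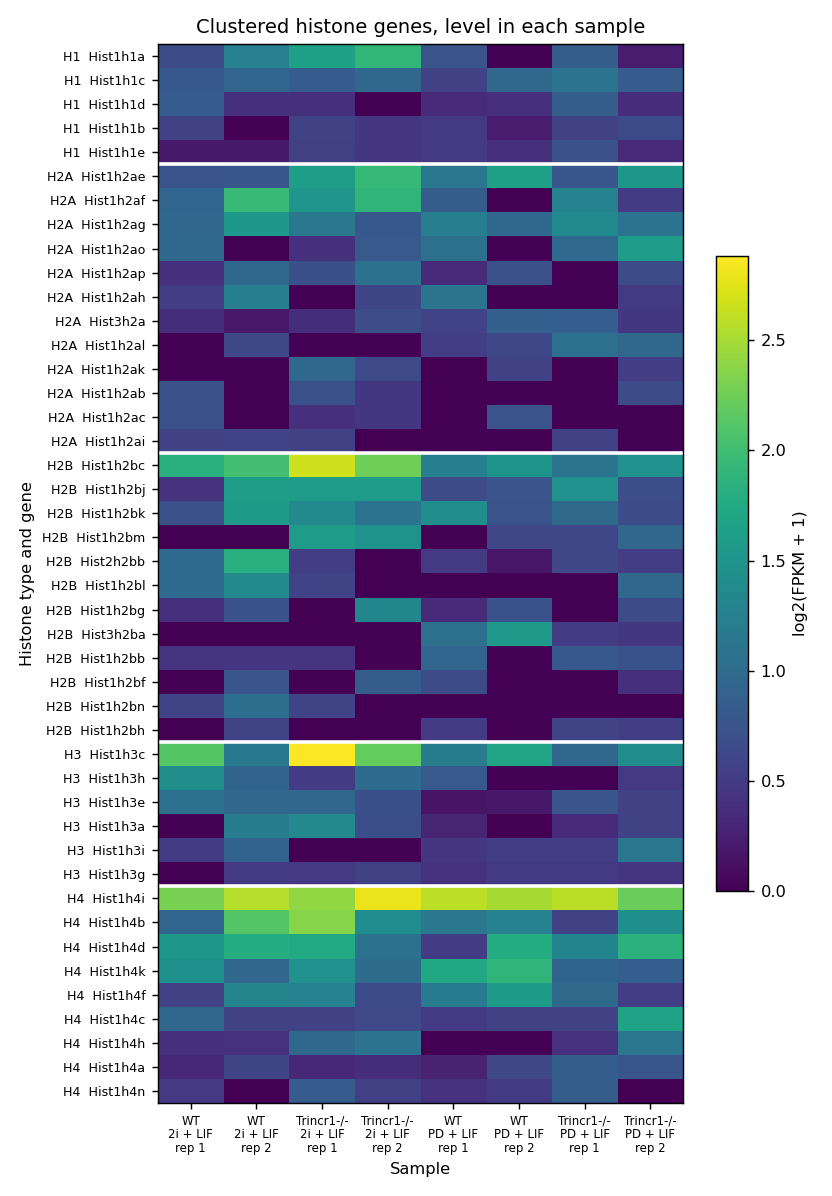
FPKM of each of the 44 members (one line of cells each, grouped by histone type) in each of the 8 samples, as log2(FPKM + 1). Hist1h4i is high in all 8 samples, while Hist3h2ba is listed at 0 in the 4 samples in 2i + LIF.

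By cluster, the Hist1 sums were 37.7 ± 8.39 FPKM in wild-type ESCs and 47.8 ± 4.74 FPKM in Trincr1-/- ESCs in 2i + LIF and 29.1 ± 0.456 and 32.5 ± 3.84 FPKM in PD + LIF (SD, n = 2). Unlike the FPKM sums of all members, those of Hist1 did not overlap between genotypes in either medium. They were 31.8 and 43.7 against 51.1 and 44.4 FPKM in 2i + LIF and 28.7 and 29.4 against 29.8 and 35.2 FPKM in PD + LIF. Trincr1-/- ESCs were higher by narrow gaps. The run at chr13:23531049-23764358, with 23 members, was at 17.6, 24.1, 33.1 and 27.0 FPKM in 2i + LIF and 12.9, 16.5, 14.8 and 20.0 FPKM in PD + LIF. Here the media did not overlap in either genotype. Hist3 went the other way, with 0.301, 0.147, 0.299 and 0.598 FPKM in 2i + LIF and 1.57, 2.79, 1.24 and 0.766 FPKM in PD + LIF, and the media did not overlap in either genotype. Hist2h2bb, the one Hist2 member, was at 1.01 and 2.51 FPKM in wild-type ESCs in 2i + LIF and at most 0.525 FPKM in the other 6 samples.

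The comparisons between groups were made with limma on log2(FPKM + 1) over all 15430 genes, with Benjamini-Hochberg adjusted p under 0.05 as the threshold, and a log2 difference on this scale understates the change of a low gene. In the filter a gene counts over all samples together, so a member listed at 0 in a whole group passed only through other groups. That holds for 3 members in wild-type and 4 in Trincr1-/- ESCs in 2i + LIF and for 5 and 2 members in PD + LIF. Between the replicates of a group a median member differed by 0.31 to 0.48 on the log2 scale.

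In 2i + LIF, where the question was what the loss of Trincr1 does to ESCs with both inhibitors present, 1 of the 44 members was higher in Trincr1-/- ESCs (background 0.35% of all genes tested) and none was lower (background 0.855%). The member was Hist1h2bm, an H2B gene, listed at 0 in both wild-type samples and at 2.03 and 1.79 FPKM in the Trincr1-/- samples. Its log2 difference was 1.54 ± 0.22 (SE, limma adjusted p = 0.0239), from 0 and 0 against 4 and 3 fragments, a value that depends on the pseudocount and sets no bound on the fold. The call was lost with a pseudocount of 0.1 (log2 difference 4.33), with no filter, in a fit of these groups alone, and without any 1 of the 4 samples in 2i + LIF or of the Trincr1-/- samples in PD + LIF (0 calls each). The median difference of the members was 0.08 against 0.00 for all genes tested, 10 members had an unadjusted p under 0.05 (background 14.6%), and 16 of 44 had groups that did not overlap (background 44.4%). Hist1h2bp, an H2B gene below the filter with a mean of 0.174 FPKM, was at 0.656 and 0.740 FPKM in the Trincr1-/- samples in 2i + LIF and at 0 in the other 6. It was chosen after its values were seen.

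In PD + LIF, where the genotypes were compared after CHIR99021 had been taken away, 2 members were lower in Trincr1-/- ESCs (background 5.77%) and none was higher (background 6.29%). Hist3h2ba, an H2B gene outside the large cluster, stood at 1.08 and 1.94 FPKM in the wild-type samples and 0.430 and 0.380 FPKM in the knockout samples, from 6 and 9 against 2 and 2 fragments. It fell by 0.82 on the log2 scale (SE 0.17, limma adjusted p = 0.0265). Hist1h4k, an H4 gene, stood at 2.30 and 2.71 against 0.903 and 0.817 FPKM, from 3 and 3 against 1 and 1 fragments (limma adjusted p = 0.035), and no fold is given at such counts. Neither passed in a fit of these groups alone, nor without the second wild-type replicate or either Trincr1-/- replicate in PD + LIF. Without the first wild-type replicate Hist3h2ba alone passed, and without the first Trincr1-/- replicate the single call was Hist1h4h, higher. With a pseudocount of 0.1 Hist3h2ba was no longer called and Hist1h4k still was. At that setting Hist1h3e and Hist1h4h were called higher in Trincr1-/- ESCs (log2 differences 1.585 and 2.90). The split of the calls by direction thus moved with the pseudocount, while neither Hist3h2ba nor Hist1h4k changed sign. In a fit with no trend of the variance with the level, Hist1h3e was called higher beside these 2 lower members (log2 difference 0.49). The members' median difference was 0.15 against 0.01 for all genes, 4 members had an unadjusted p under 0.05 (background 28.5%), and 11 of 44 had groups that did not overlap (background 57.7%).

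The change of medium in wild-type ESCs, from 2i + LIF to PD + LIF, moved many genes of the table and few members. Of the 44, 2 were higher in PD + LIF (background 30.9%) and 5 were lower (background 21.3%). Hist3h2ba rose from 0 in both samples to 1.08 and 1.94 FPKM (log2 difference 1.31 ± 0.17 SE, limma adjusted p = 0.000623), from 0 and 0 to 6 and 9 fragments, and this difference too depends on the pseudocount. Hist1h3e fell from 1.07 and 0.941 to 0.115 and 0.138 FPKM, from 8 and 7 to 1 and 1 fragments (log2 difference -0.83 ± 0.14 SE, limma adjusted p = 0.00187). These calls held under every alternative in which the genes were tested. Hist3h2ba, at 0 in every sample in 2i + LIF, passed the filter only through the samples in PD + LIF.

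The other calls in wild type rested on less. Hist2h2bb fell from 1.01 and 2.51 to 0.399 and 0.131 FPKM (log2 difference -1.08 ± 0.29 SE, limma adjusted p = 0.0161), and Hist1h2bc from 2.55 and 3.06 to 1.38 and 1.81 FPKM (log2 difference -0.55 ± 0.19 SE, limma adjusted p = 0.0461). Their fragments could not be estimated. Hist1h2bl was at 1.01 and 1.58 FPKM in 2i + LIF and listed at 0 in PD + LIF (2 and 3 fragments against 0 and 0, limma adjusted p = 0.0189). Hist1h2bn was at 0.506 and 1.05 FPKM and then at 0 (1 and 2 fragments against 0 and 0, limma adjusted p = 0.0181). Hist1h4k was at 1.74 and 0.929 FPKM in 2i + LIF and 2.30 and 2.71 FPKM in PD + LIF (2 and 1 against 3 and 3 fragments, limma adjusted p = 0.0448). Of the 5 lower members 4 encode H2B, the type of 12 of the 44 members. Among them Hist1h2bl and Hist1h2bn, at 0 in PD + LIF, passed the filter only through other groups. No pattern by type is read from calls on so few fragments.

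Over the members the median difference in wild type was -0.12 against 0.08 for all genes tested, and by type it was -0.34 for H3 and -0.02 for H4. A total of 15 of 44 members had groups that did not overlap (background 76.4%). Without the second wild-type replicate in 2i + LIF, 4 members passed, 3 of them higher, and the members' median was 0.03, so that the direction of the median rests on that library. Without the second wild-type replicate in PD + LIF, 3 members passed. With quantile normalization, which gave a median of -0.33 for the members and -0.02 for all genes, the split became 1 higher and 7 lower, and Hist1h4k was no longer called.

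In Trincr1-/- ESCs the same change of medium gave 4 members that were higher in PD + LIF (background 29.6%) and 4 that were lower (background 20.3%). Those that fell encode an H1, an H3 and a pair of H2B proteins. Hist1h2bc fell from 5.38 and 3.76 to 1.15 and 1.74 FPKM (log2 difference -1.18 ± 0.19 SE, limma adjusted p = 0.00195). Hist1h3c fell from 6.38 and 3.60 to 0.944 and 1.68 FPKM, from 21 and 10 to 3 and 6 fragments (log2 difference -1.35 ± 0.37 SE, limma adjusted p = 0.0185). Hist1h1a fell from 2.13 and 2.76 to 0.803 and 0.177 FPKM, from 11 and 12 to 4 and 1 fragments (log2 difference -1.24 ± 0.32 SE, limma adjusted p = 0.016). These 3 genes lie within the run at chr13:23531049-23764358. Hist1h2bm fell from 2.03 and 1.79 to 0.525 and 0.938 FPKM, from 4 and 3 to 1 and 2 fragments (log2 difference -0.76 ± 0.22 SE, limma adjusted p = 0.0221).

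The 4 members higher in PD + LIF had 0 to 3 fragments in every library. Hist1h2al was listed at 0 in 2i + LIF and at 1.07 and 0.956 FPKM in PD + LIF (2 and 2 fragments, limma adjusted p = 0.00456), and Hist1h3i at 0 and then at 0.443 and 1.18 FPKM (1 and 3 fragments, limma adjusted p = 0.0165). Hist3h2ba was at 0 and then at 0.430 and 0.380 FPKM (2 and 2 fragments, limma adjusted p = 0.0457). Hist1h4a was at 0.256 and 0.304 and then at 0.796 and 0.705 FPKM (1 and 1 against 3 and 3 fragments, limma adjusted p = 0.0471). No fold is given for these 4.

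In Trincr1-/- ESCs the members' median difference was -0.20 against 0.07 for all genes, with -0.34 for H3 and -0.20 for H4, and 23 of 44 members had groups that did not overlap (background 74.5%). With quantile normalization the split became 2 higher and 8 lower, the medians were -0.39 for the members and -0.03 for all genes, and Hist1h4a and Hist3h2ba were no longer called. Without either Trincr1-/- replicate in 2i + LIF 3 members passed, and without the first in PD + LIF 5 did. Hist1h2bc and Hist3h2ba were called for the medium in both genotypes. The weaker call of each, Hist1h2bc in wild type and Hist3h2ba in Trincr1-/- ESCs, was lost in 8 of 16 and 9 of 15 alternatives.

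**Figure D3:**
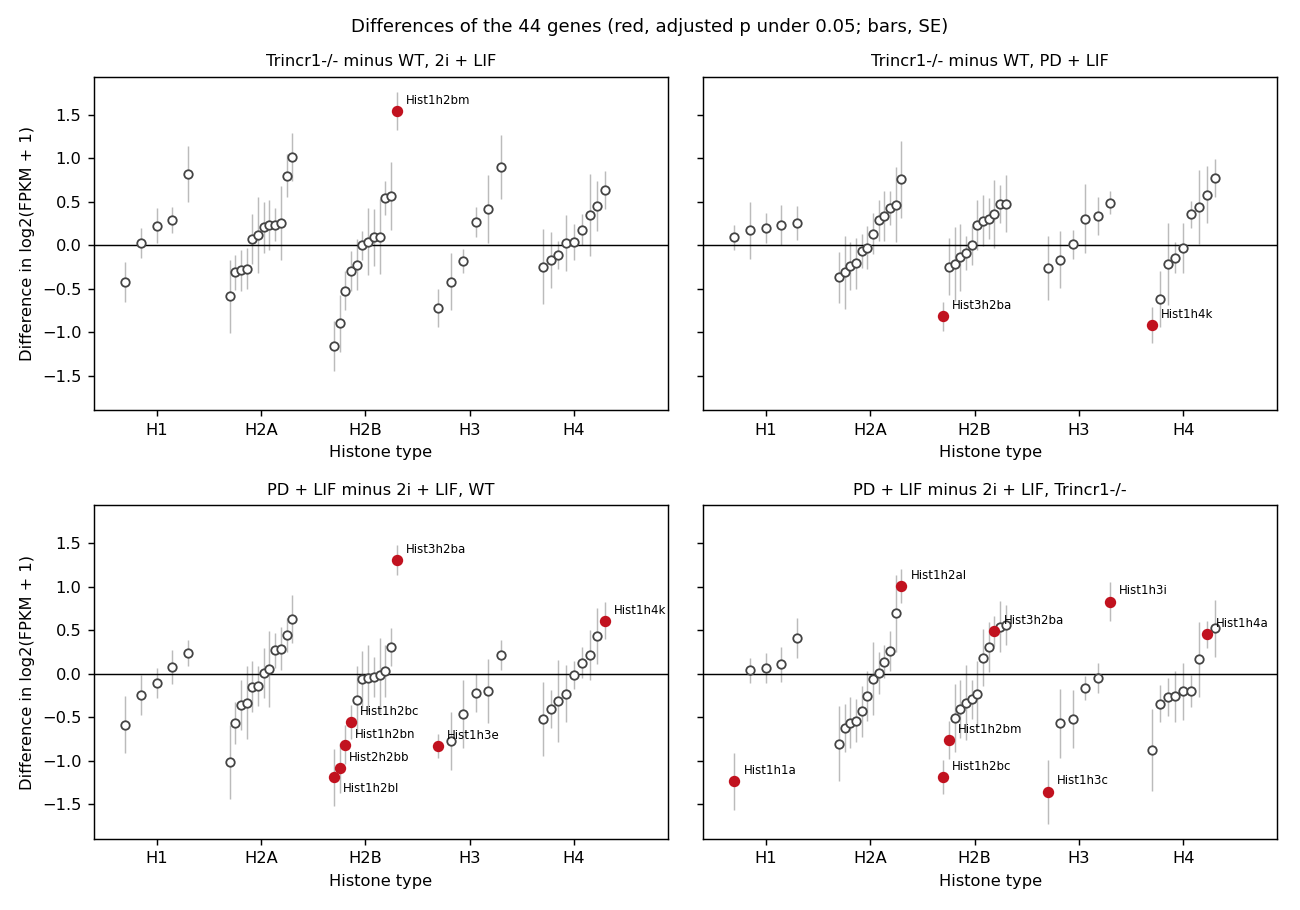
Log2 differences of the 44 members in the 4 comparisons, on the log2(FPKM + 1) scale, by histone type, with SE bars and the members past the limma threshold in red. Most points lie within 1 log2 unit of 0, and 18 points in all passed, of 13 different members.

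No member passed the test of whether the genotype effect differed between the media (background 1.81% of all genes tested), while 10 of 44 had an unadjusted p under 0.05 (background 19.0%), and the members' median was -0.04 against 0.01. Over the 4 comparisons and 18 calls, 15 had fragment estimates, of which 13 had under 10 fragments in every library and 10 had at most 4. The 4 libraries behind such a call held 3 to 40 fragments together.

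**Figure D4:**
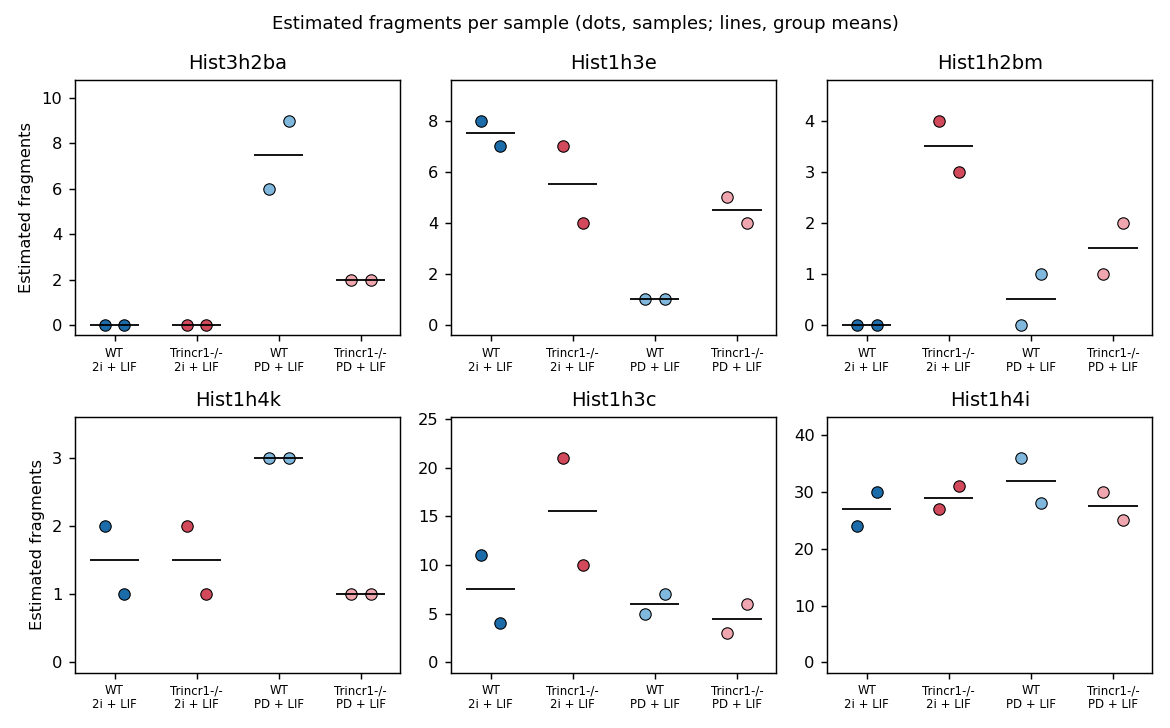
Estimated fragments of 6 members in each sample (dots) with the group means (lines), for both genotypes (WT, wild type) in each medium, each panel on its own axis from 0. Hist1h4i has 24 to 36 fragments in every library, while the calls of Hist1h2bm and Hist1h4k rest on at most 4.

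Of 17 histone genes outside the clusters, most of whose mRNAs carry a poly(A) tail, 12 passed the filter and stood far above the members. The rest were at or below the filter, 2 of them listed at 0. All 17 together summed to 1717 to 2522 FPKM per sample. They were led by H2afz (the variant H2A.Z) at 1013 FPKM, H3f3a and H3f3b (both H3.3) at 335 and 191 FPKM and H2afx at 149 FPKM. The lowest of the 12, H3f3c, was at 10.2 FPKM. None of these 12 passed for the genotype in 2i + LIF and 1 was higher in Trincr1-/- ESCs in PD + LIF, H1f0, a linker histone, with a log2 difference of 0.55 (limma adjusted p = 0.00863). From 2i + LIF to PD + LIF, 4 were higher and 2 lower in each genotype. H2afz fell from 1422 and 1230 to 631 and 714 FPKM in wild type (log2 difference -0.98, limma adjusted p = 0.000187) and from 1195 and 1282 to 873 and 761 FPKM in Trincr1-/- ESCs (log2 difference -0.60, limma adjusted p = 0.00178).

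**Figure D5:**
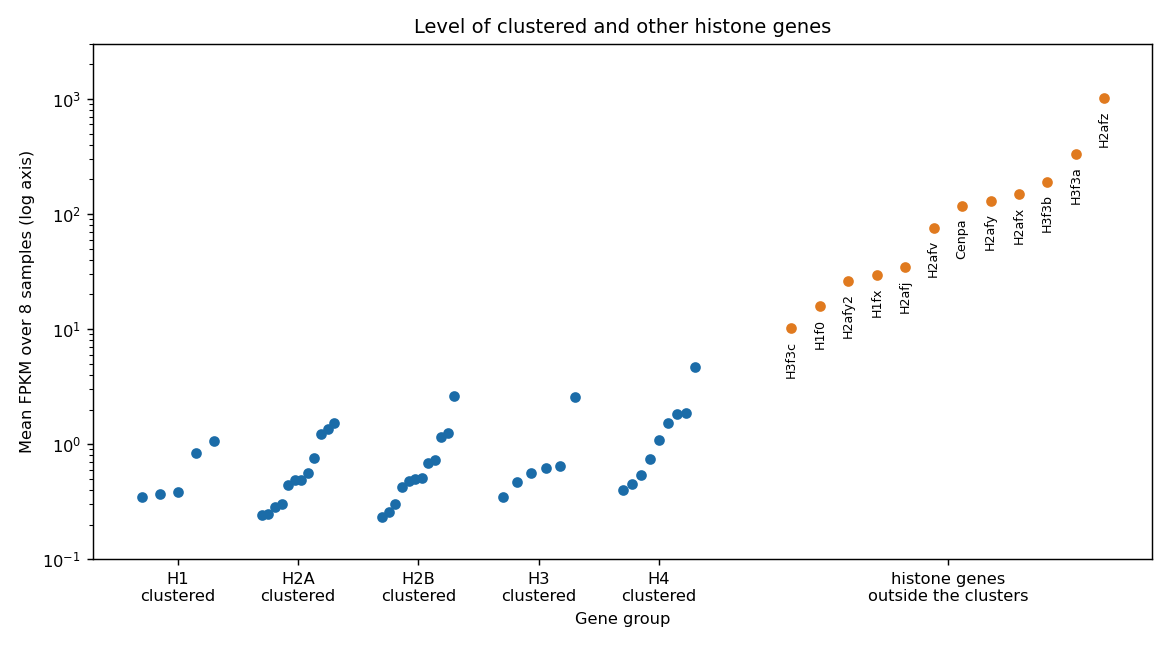
Mean FPKM over the 8 samples (log axis) of the 44 clustered members by histone type and of the 12 histone genes outside the clusters that passed the filter. The members reach from 0.235 to 4.69 FPKM, all below the lowest of these 12 genes, H3f3c at 10.2 FPKM.

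The 17 genes of histone mRNA transcription and 3′ end processing did not pass in either genotype comparison. With the medium, 5 were higher and 5 lower in wild type, and 5 were higher and 3 lower in Trincr1-/- ESCs. These are 58.8% and 47.1% of the list, near the 52.2% and 49.95% called among all genes tested. Slbp, which binds the stem-loop, fell in wild type from 83.4 and 85.5 to 55.2 and 61.2 FPKM (log2 difference -0.53, limma adjusted p = 0.000264), and in Trincr1-/- ESCs it was at 73.9 and 76.6 and then 68.4 and 66.7 FPKM (log2 difference -0.15, limma adjusted p = 0.0574). Srrt, a partner of the cap-binding complex, fell in wild type (log2 difference -0.63), and Sympk (a scaffold of the cleavage complex), Lsm11 (a U7 snRNP subunit) and Zfp473 (which binds the U7 snRNP) rose by 0.55, 0.57 and 0.55 on the log2 scale. With quantile normalization Lsm11 was no longer called in either genotype.

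Genes of S phase, the phase in which clustered histone genes are transcribed, were mostly lower in PD + LIF. In wild type 16 of 26 were lower (background 21.3%) and 1 was higher. In Trincr1-/- ESCs 15 of 26 were lower (background 20.3%) and 3 were higher. Examples in wild type were Tk1 (log2 difference -0.86), Tyms (-0.60), both of nucleotide supply, and Pcna, the polymerase clamp (-0.52). Their sums were 2515 to 2634 FPKM in the 4 samples in 2i + LIF and 2063 to 2142 FPKM in the 4 in PD + LIF, and their part in the members' values was not tested. Of 22 genes of G2 and M phase, 14 were higher (background 30.9%) and 3 lower in wild type, and 16 were higher (background 29.6%) and 4 lower in Trincr1-/- ESCs. For the genotype, S phase genes gave 0 calls in 2i + LIF and 2 higher in PD + LIF, and G2 and M phase genes 1 lower in 2i + LIF and 2 in each direction in PD + LIF.

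Of 22 histone chaperones, which carry histones to and from DNA, 14 were lower (background 21.3%) and 4 higher in PD + LIF in wild type. In Trincr1-/- ESCs 10 were lower (background 20.3%) and 4 higher. For the genotype 2 were higher in PD + LIF and none was called in 2i + LIF. Under quantile normalization 2 of the calls in wild type changed sign and the counts were 9 lower and 4 higher. In Trincr1-/- ESCs the counts were then 6 lower and 5 higher, with no change of sign. Of all 15430 genes tested, 3946 were lower in wild type and 3838 in Trincr1-/- ESCs at that setting. Other RNAs without a poly(A) tail, small nuclear and nucleolar RNAs among them, mostly did not reach the filter. Of 2943 such genes 24 passed the filter. All 2943 together summed to 45.3 to 545 FPKM, the latter in the first Trincr1-/- replicate in PD + LIF. Among the 24 that passed the filter the single call in the 4 comparisons was Rn7sk, the RNA of the 7SK particle. It fell in wild type from 12.4 and 11.6 to 5.77 and 3.02 FPKM (log2 difference -1.31, limma adjusted p = 0.0064).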

How the data were processed

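Poly(A) RNA-seq was analysed for 8 samples in 4 groups of 2. The authors aligned reads with STAR 2.5.0 and deposited normalized FPKM values from Cufflinks 2.2.1 for each gene and sample. The notes name mm9, but the gene starts follow GRCm38. No reads were aligned again. The table had 41260 entries, and for 39 gene identifiers with several entries the one with the highest mean was kept. A table of RNA bound by TRIM71 lists none of the members and was not used.

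Genes with a mean above 0.2 FPKM were compared as log2(FPKM + 1) with limma 3.58.1 in R 4.3.3, all 4 groups in 1 model with 4 residual degrees of freedom, and p-values were adjusted by Benjamini-Hochberg over 15430 genes (threshold 0.05). The fit was tested on simulated data, where it recovered 80 of 98 genes changed by 1 and 100 of 102 changed by 2 on the log2 scale, with 3 false calls, for the genotype in PD + LIF among 15430 genes. The changed genes were drawn from those with a mean log2(FPKM + 1) above 1, with normal noise. Only 13 of the 44 members had a mean above 1 FPKM, so this recovery does not describe most members. The worth of 1 fragment was found from the low FPKM values of single-exon genes, 96.2% to 97.9% of which then came out whole to within 0.1, in libraries of 10.3 to 14.1 M fragments. This depth leaves most members at a few fragments. Sequences were read with pysam 0.24.0, plots drawn with matplotlib 3.10.9 and tables made with scipy 1.17.1, numpy 2.4.6 and pandas 2.3.3 in Python 3.11.15.

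The members and gene lists were chosen with earlier results of these data known. Given in full were the 3 members of each histone type with the highest mean, every member past the threshold for the genotype (up to 5 in each direction), and the 5 with the largest difference in each direction for the medium among those past the threshold. Of a list, at most 5 genes past the threshold with the largest difference were named, or the most expressed. H2afz, H3f3a, H3f3b, H2afx and H3f3c are given for their level, and Slbp in Trincr1-/- ESCs for its role. Alternatives were the pseudocount, the filter, 2 further normalizations and a fit with no trend of the variance with the level. Further ones were a fit of the compared groups alone, a replicate block and leaving out each replicate. Replicate numbers did not pair the samples.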

Additional observations from a re-analysis of the deposited data

Results flagged for a closer look

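The effect of the genotype on Col1a1, a collagen gene listed here as a marker of fibroblast feeder cells, differed between the media by 1.11 on the log2 scale (limma adjusted p = 0.028 for the difference). Col1a1 was at 0.144 and 0.115 FPKM in wild-type ESCs and 0.0715 and 0.0682 FPKM in Trincr1-/- ESCs in 2i + LIF, where the genotypes differed by -0.08 on the log2 scale (limma adjusted p = 0.829). In PD + LIF it was at 0.373 and 0.446 FPKM in wild-type ESCs and 1.95 and 1.82 FPKM in Trincr1-/- ESCs, a log2 difference of 1.03 (limma adjusted p = 0.0037). No clustered histone gene showed such a difference past the threshold.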

How the results depend on the processing

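The counts of called members were small and moved with the settings. For the genotype in 2i + LIF the 1 call became 0 with a pseudocount of 0.1 FPKM, with a filter at a mean above 1 FPKM, with no filter and in a fit of the 2 groups alone. In PD + LIF the 2 calls became 1 with the filter at 1 FPKM, 1 with no filter and 0 in the fit of 2 groups. With a pseudocount of 0.1 FPKM the calls there were Hist1h3e and Hist1h4h, higher, and Hist1h4k, lower. For the medium in wild type the 7 calls became 2 with the filter at 1 FPKM. In Trincr1-/- ESCs the 8 calls became 5 with a pseudocount of 0.1 FPKM, 3 with the filter at 1 FPKM and 5 with no filter. The filter at 1 FPKM leaves 13 of the 44 members to test. Every call lost at this filter was of a member outside those 13, and every call of those 13 was kept. These drops were thus set by the filter. Leaving out 1 replicate, where the lone sample left in its group is assumed to vary like the others, gave 0 to 1 and 0 to 2 calls for the genotype in 2i + LIF and PD + LIF, and 3 to 8 and 3 to 9 for the medium in wild-type and Trincr1-/- ESCs. The test of the difference between media gave 0 calls throughout. With the replicate block there were 1, 2, 7, 9 and 0 calls, without Hist1h2bc in wild type and Hist3h2ba in Trincr1-/- ESCs for the medium, and the deviations of same-numbered samples were uncorrelated (-0.0539 to 0.00634). Of 276 repeats of the 18 single calls, 200 kept their side of the threshold, 76 did not and 0 turned. The cause of these losses was not tested. The comparison with RNA bound by TRIM71 was not run, since its table lists no member. At this depth 68 of 328 values were 0 and 182 were 1 to 3 fragments.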
